A study of Mus musculus with 6 samples.

Results

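Peak summits of p53 ChIP-seq from epidermal basal progenitors of mice were examined beside the keratin genes. Keratin genes were taken as all protein-coding RefSeq genes (build GRCm38.p6, which shares its primary chromosomes with mm10) with a symbol of Krt, digits and an optional letter. There were 53 of them among 21887 protein-coding genes on assembled nuclear chromosomes. All lay in a pair of clusters, 27 genes on chromosome 11 and 26 on chromosome 15. A gene was counted as having a site where a peak summit lay inside it or within 10 kb of either end. The cells came from mice 8 weeks old and were sorted for high alpha-6 integrin and for EpCAM. The genotypes were WT, with wild-type p53, and 3KR, a p53 allele which from general knowledge of the allele carries arginine in place of lysines in the DNA-binding domain that are otherwise acetylated. Cells of both genotypes met 25 µM Nutlin-3a, an inhibitor of MDM2, the ligase that marks p53 for breakdown, during digestion of the tissue. There were 3 libraries of each genotype, but a single combined list of summits for each, with 1668 summits for WT and 6753 for 3KR.

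Keratins are the intermediate filament proteins of epithelia. A type I keratin pairs with a type II keratin, and cells change the pair they make as they mature. Basal epidermal cells make KRT5 with KRT14, cells above them make KRT1 with KRT10, wounded skin makes KRT6 with KRT16 and KRT17, simple epithelia make KRT8 with KRT18, and the hair follicle has keratins of its own. Type II genes sit on chromosome 15 and type I genes on chromosome 11, except the type I gene Krt18, which lies beside Krt8. The transcription factor p63, a relative of p53 that reads a similar DNA motif, is known to act at Krt5 and Krt14.

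Values of single libraries were not analysed here, so the spread between animals is unknown and no test between the genotypes was made. Depth is unknown, and the number of summits called grows with it. Summits are named after a run whose label ends in 1 for WT and contains the word Doxo for 3KR. The labels speak of Nutlin-3a and of lists made from all libraries instead. If Doxo stands for a compound that only the 3KR cells received, its effect and that of the genotype cannot be told apart. Of the genes of the sort markers, Itga6 had a summit in both lists and Epcam in neither; binding does not measure expression.

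In the WT list 4 of 53 keratin genes had a site, or 7.55% (95% Wilson interval 2.97 to 17.9), against 5.04% of all protein-coding genes. They were Krt5, Krt14, Krt75 and Krt78. In the 3KR list 11 of 53 had one, or 20.8% (12.0 to 33.5), against 23.4% of all genes. They were Krt5, Krt14 and Krt78 again, with Krt7, Krt8, Krt10, Krt15, Krt19, Krt33a, Krt33b and Krt80. Both background shares lay inside the intervals, so at 10 kb these counts single out the keratin genes in neither list. Intervals cover counting error only, and neighbouring genes can share a summit. A site in both lists was found at 3 keratin genes (3.92% of all genes), in WT only at 1 (1.12% of all genes) and in 3KR only at 8 (19.4% of all genes). The remaining 41 had none.

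**Figure D1:**
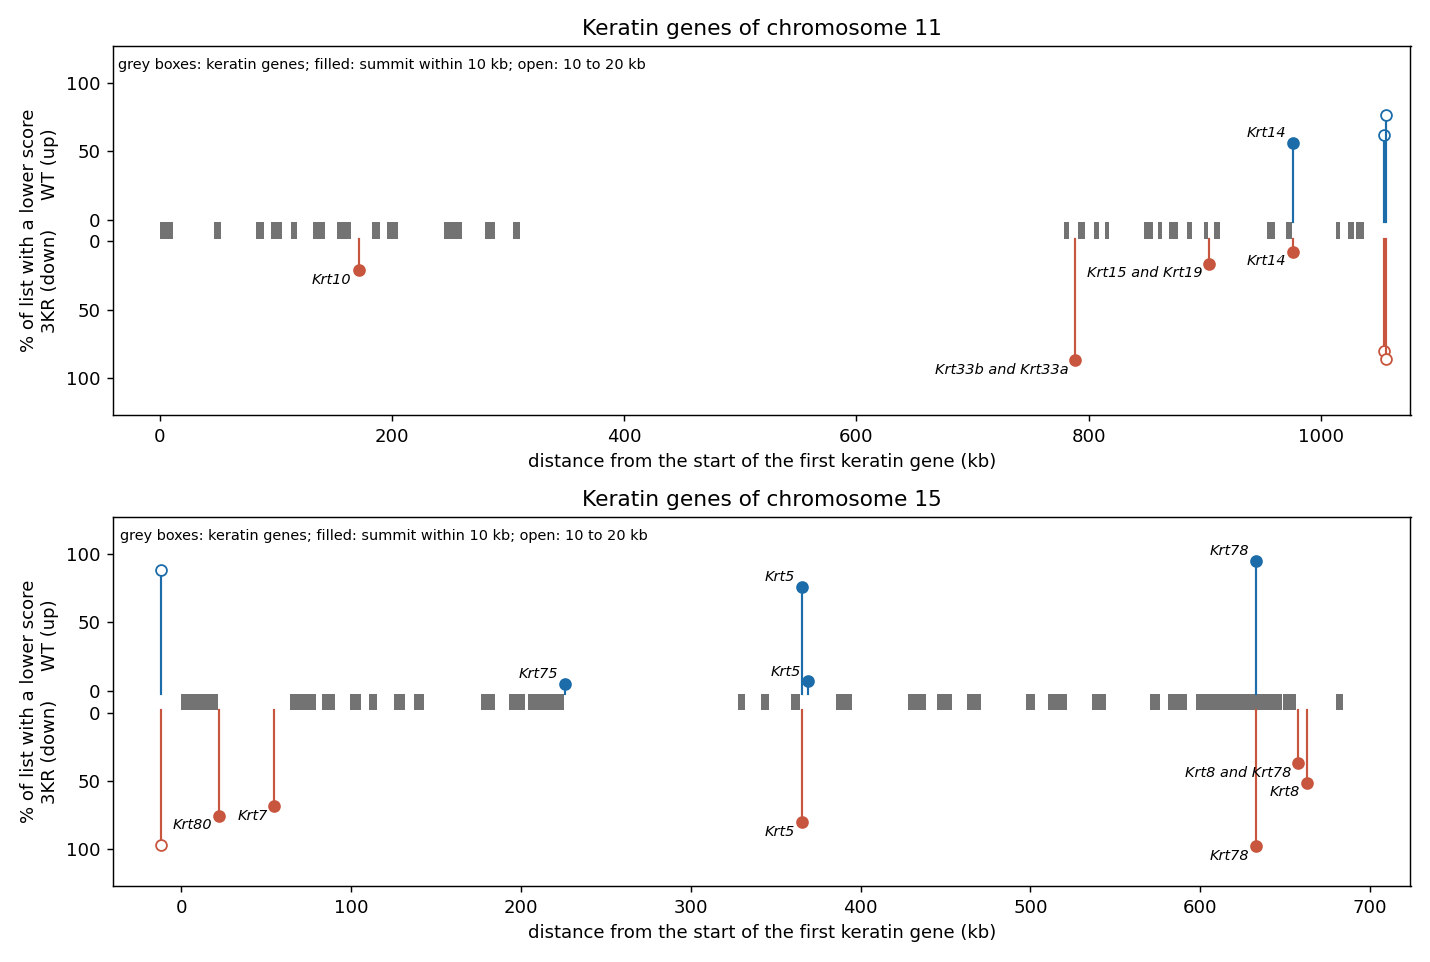
Keratin genes (grey boxes) along both clusters, by distance in kb from the first keratin gene; stems show WT summits upwards and 3KR summits downwards, and their height is the percentage of summits in the same list with a lower score. Filled points lie within 10 kb of a keratin gene and are labelled, open points lie 10 to 20 kb away; Krt5, Krt14 and Krt78 have stems at the same place in both lists.

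The sequence in front of Krt75 is shown because it is the single keratin promoter window of the RefSeq table that holds a summit. That of Krt5 is shown because Krt5 has a site in both lists and is the single keratin gene with a site whose window holds an exact match to the p53 half-site. Both are the 250 bases before the start site, 5′ to 3′ on the minus strand (GRCm38.p6). Krt75 is at chr15:101573905-101574154, with the 21 bases centred on the WT summit in capitals. Krt5 is at chr15:101712906-101713155, with the half-site in capitals.
Krt75: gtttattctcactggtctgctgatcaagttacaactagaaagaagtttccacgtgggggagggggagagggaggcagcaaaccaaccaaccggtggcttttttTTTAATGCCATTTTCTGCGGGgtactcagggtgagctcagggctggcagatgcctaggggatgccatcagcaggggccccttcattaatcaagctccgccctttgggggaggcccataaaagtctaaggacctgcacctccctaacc
Krt5: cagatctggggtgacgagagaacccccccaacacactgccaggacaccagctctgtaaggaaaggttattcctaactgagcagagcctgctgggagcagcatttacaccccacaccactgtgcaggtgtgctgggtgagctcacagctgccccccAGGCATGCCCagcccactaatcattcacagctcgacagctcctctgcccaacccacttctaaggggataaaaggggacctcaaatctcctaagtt

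Among the basal keratins, Krt5 and Krt14 had a site in both lists and Krt15 in 3KR only. In WT that is 2 of 3 (66.7%, Wilson interval 20.8 to 93.9), against 5.04% of all genes. In 3KR it is 3 of 3 (interval 43.9% to 100%), against 23.4% of all genes. Both intervals lie above the shares of all genes, but the class has only 3 genes, was picked out of several, and no test was made. It also depends on the settings. Within 1 kb only Krt5 of this class had a WT site and only Krt15 a 3KR site. When the 3KR list was cut to its highest scored summits, as many as in WT, only Krt5 of this class had a 3KR site. Krt5, the type II keratin of basal cells (chromosome 15, 101707069 to 101712905), had a WT summit at 101713862 and a 3KR summit at 101713920, 957 and 1015 bp upstream of its start site. The WT summit scored 15.3 and ranked 400 of 1668, and the 3KR summit scored 18.9 and ranked 1274 of 6753. The scores are the authors', a −log10 p or q value, and were compared within a list only. By rank, 76.0% of WT summits and 80.0% of 3KR summits scored lower. Krt5 also had a second WT summit at 101717366, 4461 bp upstream, with a score of 4.56 and rank 1553. The nearest 3KR summit was 3446 bp from it, so this second site was in the WT list alone and near its lower end.

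Krt14, the type I partner of Krt5 (chromosome 11, 100203162 to 100207510), had a WT summit at 100208717 and a 3KR summit at 100208679. They lay 1207 and 1169 bp outside the gene and 38 bp from each other. The WT summit scored 10.3 and ranked 732 of 1668. The 3KR summit scored 5.13 and ranked 6018 of 6753, with only 7.67% of its list lower. The shared site of Krt14 therefore stood in the middle of the WT list and near the end of the 3KR list, while that of Krt5 stood in the upper part of both. Krt15, a keratin of basal cells and of hair follicle stem cells (chromosome 11, 100131759 to 100135949), had a 3KR summit 899 bp outside the gene, at 100136848. It scored 6.27 and ranked 5381. The same summit lay 3962 bp from Krt19, a keratin of simple epithelia and hair follicles, and was the single summit counted for either gene.

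Krt78, a type II keratin of the layers above the basal one, held the highest scored keratin site in both lists. Its WT summit at 101981047 on chromosome 15 scored 45.1 and ranked 80 of 1668. The 3KR summit at 101981054, 7 bp away, scored 57.3 and ranked 149 of 6753. The table gives Krt78 a span of 50624 bp, from 101946001 to 101996624, and places both summits inside it, 15577 and 15570 bp from its nearer end. The start site of Krt78 in the RefSeq promoter table is at 101954287, and the summits lay 26760 and 26767 bp upstream of that site. The call for Krt78 thus rests on the longest annotated span. From the WT summit, Krt8 was 15664 bp away.

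Other keratins of the upper layers had sites in the 3KR list only. Krt80, a keratin of maturing epithelial cells (chromosome 15, 101348315 to 101370162), had one 414 bp outside the gene at 101370576, with a score of 16.6 and rank 1570. Krt10, the partner of KRT1 in the upper layers, had one 6683 bp outside the gene at 99404132 on chromosome 11, with a score of 6.87 and rank 5006. Its distance to the Krt10 start site of the promoter table was 14768 bp. Krt1, Krt2, Krt9, Krt24 and Krt77 had no site in either list. For Krt1 the nearest WT summit was 128060 bp away and the nearest 3KR summit 130268 bp away. In all, 1 of 8 suprabasal keratins had a WT site (12.5%, 2.24 to 47.1, against 5.04% of all genes) and 3 of 8 a 3KR site (37.5%, 13.7 to 69.4, against 23.4%).

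The stress-induced keratins Krt6a, Krt6b, Krt16 and Krt17, which rise in wounded and proliferating skin, had no site within 10 kb in either list. Their nearest WT summits were 19557, 33569, 37374 and 26168 bp away, in the order named, and their nearest 3KR summits 19615, 33627, 37412 and 26219 bp away. For Krt6a and Krt6b these were the shared site upstream of Krt5. For all 4 genes the distances in the lists differed by 38 to 58 bp, which means that the nearest summit was at a shared site. Within 10 kb, 5.04% of all genes had a WT site and 23.4% a 3KR site. The Wilson intervals of this class hold both shares. The absence of a site at only 4 genes therefore does not set the class apart from all genes.

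**Figure D2:**
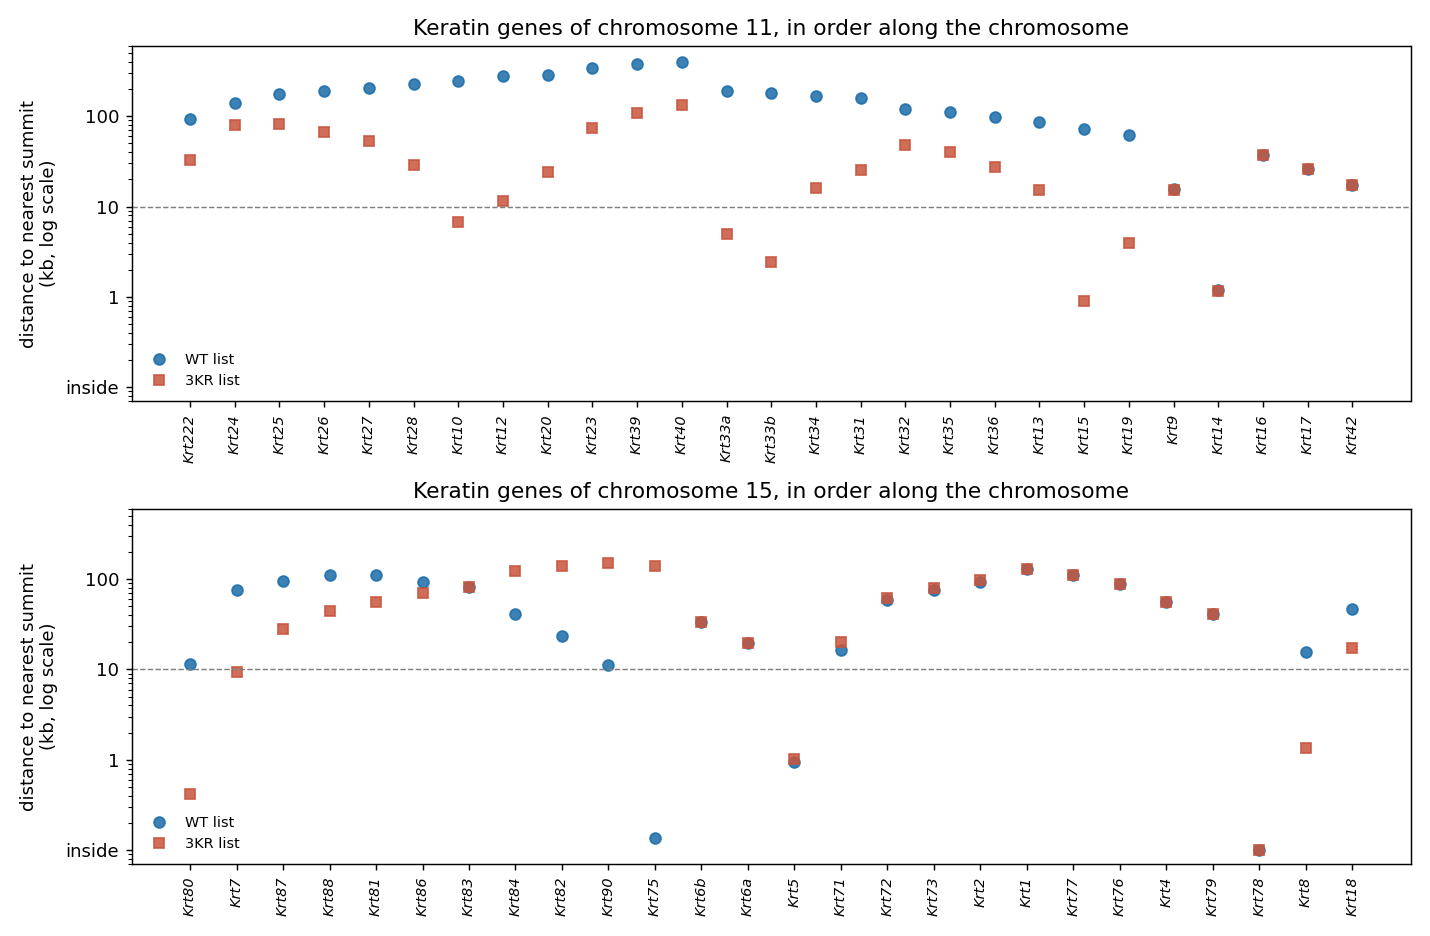
Distance in kb (log scale) from every keratin gene to its nearest summit in the WT list (circles) and the 3KR list (squares), genes in chromosomal order, with the 10 kb limit as a dashed line. Circles and squares nearly coincide at Krt14, Krt5 and Krt78, and also at genes without a site such as Krt6a and Krt16. They part at Krt10, Krt80, Krt75 and others. Krt75 has a WT summit at 137 bp and none of 3KR within 100 kb.

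Of 6 keratins of simple epithelia 3 had a 3KR site (Wilson interval 18.8% to 81.2%, against 23.4% of all genes), and none a WT site (upper bound 39.0%, against 5.04% of all genes). Krt8, the type II keratin of simple epithelia (chromosome 15, 101996711 to 102004342), had 3KR summits 1346 and 6493 bp upstream of its start site, at 102005688 and 102010835. They scored 8.74 and 10.7 and ranked 3966 and 3028. The first of them was also 9064 bp from the annotated end of Krt78. Krt7, another type II keratin of simple epithelia, had a 3KR summit 9266 bp upstream at 101403137, with a score of 14.3 and rank 1978. The third gene was Krt19, described with Krt15. Krt18, the partner of KRT8, had no site, and its nearest 3KR summit was 17381 bp away.

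Of 15 hair shaft keratins, which build the hair itself, 2 had a site, both in 3KR (23.4% of all genes) and both from the same summit, and none had one in WT (5.04% of all genes). It stood at 100021206 on chromosome 11 between Krt33a and Krt33b, 4994 and 2428 bp from them. Its score of 23.9 and rank of 822 made it the second highest of the keratin sites of 3KR. It lay 8662 bp downstream of the start site of Krt33b, beyond the other end of the gene. The 7 inner root sheath keratins had no site in either list. For both classes the Wilson intervals, up to 37.9% in 3KR for hair shaft and 35.4% in either list for inner root sheath keratins, hold the shares of all genes. Krt75, a keratin of the companion layer of the hair follicle (chromosome 15, 101563343 to 101573904), was the single keratin gene with a site in WT only. Its WT summit at 101574041, 137 bp upstream of the start site, scored 4.46 and ranked 1558 of 1668. The nearest 3KR summit was 139879 bp from it.

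**Figure D3:**
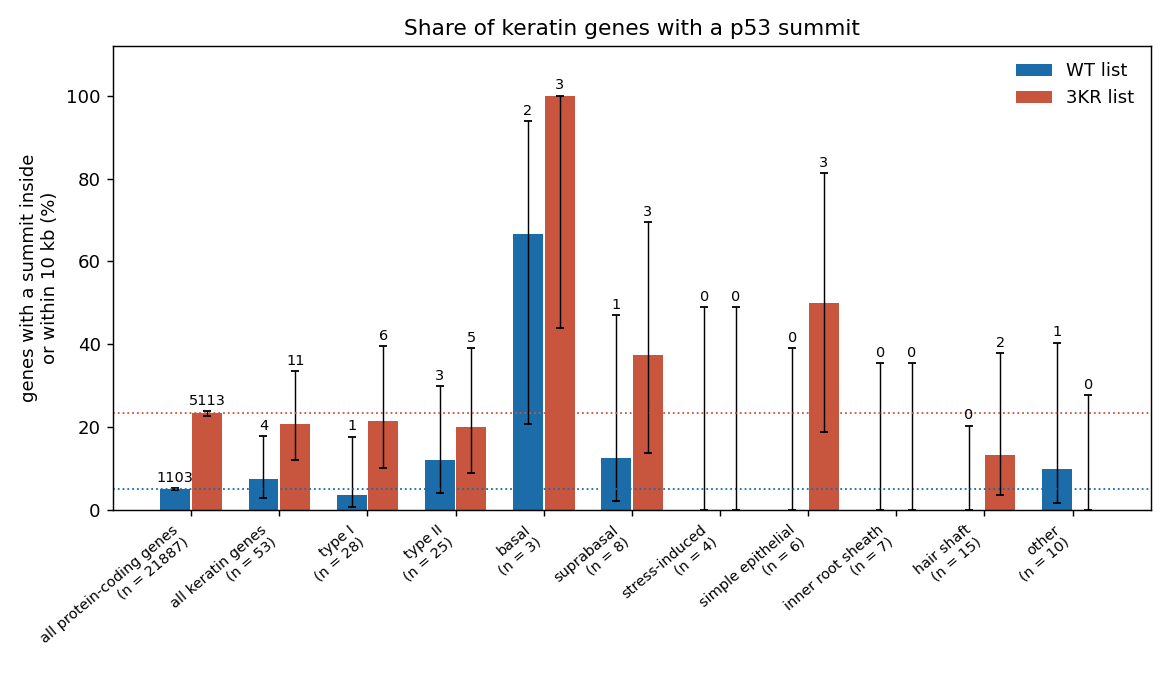
Percentage of genes with a summit inside or within 10 kb, for all protein-coding genes, all keratin genes, both keratin types and each class of keratin, in the WT and 3KR lists; error bars are 95% Wilson intervals, numbers above them are genes with a summit, and dotted lines mark all protein-coding genes. All keratins stand at 7.55% and 20.8%, beside 5.04% and 23.4% for all genes, and classes of few genes have wide intervals.

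By type, 1 of 28 type I genes and 3 of 25 type II genes had a WT site, and 6 of 28 and 5 of 25 a 3KR site. The Wilson intervals of all 4 shares hold those of all genes, 5.04% in WT and 23.4% in 3KR. The cluster of chromosome 15, its outer genes widened by 10 kb, held 4 WT summits in 0.704 Mb, or 5.68 per Mb (exact 95% Poisson interval 1.55 to 14.6, counting error only), against 0.617 per Mb over the annotated chromosome. For 3KR it held 6 summits, or 8.53 per Mb (3.13 to 18.6), against 2.60. Genes were also denser there, at 38.4 protein-coding genes per Mb against 7.48 over the chromosome. The cluster of chromosome 11 held 1 WT summit in 1.06 Mb, or 0.946 per Mb (0.0239 to 5.27), against 0.960 over its chromosome. It held 4 summits of 3KR, or 3.78 per Mb (1.03 to 9.69), against 4.21. Its genes were denser still, at 61.5 per Mb against 13.2 over the chromosome, while its summits were about as dense as those of the chromosome in both lists. The part of gene density in these values was not tested.

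The longest gaps within the widened clusters are given to place the sites, and gaps elsewhere were not measured. In the chromosome 11 cluster, on a chromosome with 0.960 WT summits and 4.21 3KR summits per Mb, no WT summit was found over 986 kb. This stretch, with 24 whole keratin genes, ran from the widened edge of the cluster to the site of Krt14. It is cut at that edge, since the nearest WT summit to Krt222, the first gene, lay 93706 bp away beyond the edge. In 3KR the longest gap was 617 kb, between the summits near Krt10 and Krt33a, with 6 whole keratin genes and 23 genes of keratin-associated proteins, which fill the matrix of hair. In the chromosome 15 cluster the longest WT gap was 264 kb, from the second Krt5 site to that of Krt78, with 9 whole keratin genes. In 3KR it was 311 kb, from the Krt7 site to that of Krt5, with 13. Some genes counted in these gaps do have a site, from a summit that bounds the gap. They are Krt14 (WT, chromosome 11), Krt33a (3KR, chromosome 11), and Krt5 and Krt7 (3KR, chromosome 15).

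**Figure D4:**
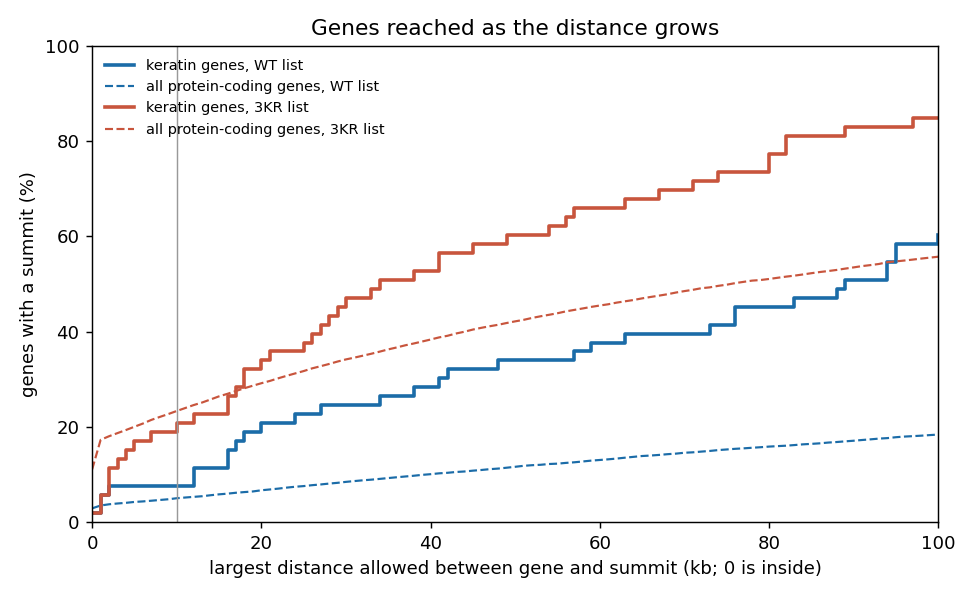
Percentage of keratin genes (solid) and of all protein-coding genes (dashed) with a summit inside or within the distance on the horizontal axis in kb, for the WT and 3KR lists; the vertical line marks 10 kb. Keratin curves cross the line at 7.55% and 20.8%, and at 50 kb reach 34.0% in WT and 60.4% in 3KR, against 11.6% and 42.2% of all genes. At 1 kb the 3KR curves stand at 5.66% of keratin genes and 17.3% of all genes.

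At the 10 kb limit, the keratin gene farthest from its nearest WT summit among those counted was Krt14, at 1207 bp, and the nearest of those not counted were Krt90 at 11091 bp, Krt80 at 11645 bp and Krt9 at 15471 bp. For 3KR, Krt7 at 9266 bp was the last inside, and Krt12 at 11532 bp and Krt13 at 15282 bp the first outside. Beyond the Krt222 edge of the chromosome 11 cluster and the Krt18 edge of that of chromosome 15, summits within 50 kb were in 3KR only. They lay 32.5 and 41.7 kb away. Shared sites stood beyond the other edge of each cluster. One lay 11.6 kb outside Krt80 in WT and 11.7 kb outside it in 3KR, the summits 18 bp apart, with rank 192 of 1668 and rank 223 of 6753. Beyond Krt42 at the end of the chromosome 11 cluster were shared sites at 17.2 and 19.2 kb in WT, with ranks 638 and 388, whose 3KR partners were 51 and 3 bp away and ranked 1357 and 948.

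Of the 5 WT summits counted for keratin genes 3 were also in the 3KR list, at most 200 bp away (60.0%, 23.1 to 88.2 by Wilson interval), against 53.1% of the whole WT list. Of the 10 distinct 3KR summits 3 were shared, or 30.0% (10.8 to 60.3), against 13.0% of the whole 3KR list. The shared sites are those of Krt5, Krt14 and Krt78, with summits 58, 38 and 7 bp apart. Scores of keratin summits ran from 4.46 to 45.1 in WT (median 10.3, whole list 9.42) and from 5.13 to 57.3 in 3KR (median 12.5, whole list 10.1). Both intervals for sharing hold the value of the whole list, and the keratin sites are few.

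The RefSeq promoter table, with 250 bases before and 50 after each start site, held 37 windows for 36 keratin genes. A WT summit fell inside 1 of these windows, that of Krt75, and a 3KR summit inside none, against 0.564% and 7.24% of the windows of all protein-coding genes. Counted within 10 kb of these start sites, 3 of 36 keratin genes had a WT site (2.48% of all genes in the table) and 5 a 3KR site (16.7% of all genes in the table). An exact match to the p53 half-site, read on both strands, was in 3 keratin windows, or 8.11% (2.80 to 21.3), against 7.37% of all protein-coding windows. These 3 matches are given here because they are the p53-like letters of the keratin promoters, with the core in capitals.
Krt5: aggCATGccc
Krt76: aggCAAGttt
Krt82: gaaCAAGtcc
The match of Krt5 begins 95 bp before its start site. Its last base, the end nearer the start site, is 871 bp from the WT summit and 929 bp from the 3KR summit. That of Krt82 begins 62 bp before its start site and that of Krt76 lies farther upstream, and neither gene had a site in either list. In the Krt75 window the closest stretch had 1 mismatch to the half-site, 61 bp before the start site and not at the summit. These matches describe letters in a window. The sequences under the summits of Krt5, Krt14 and Krt78 were not analysed here.

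Genes of proteins that link keratin filaments to junctions or to the cell's envelope were counted for context, with no test made. In WT 4 of 9 had a site (Wilson interval 18.9% to 73.3%, against 5.04% of all genes), Dsp, Dst, Evpl and Ppl. In 3KR 6 of 9 had one (35.4% to 87.9%, against 23.4%), the same genes with Pkp1 and Plec. A summit anywhere inside a gene counts, so long genes are reached more easily, and gene length was not taken into account. Dst had 7 summits in 3KR. The WT summit of Ppl ranked 1316 of 1668 and was not shared, with the nearest 3KR summit 1788 bp away. Dsp encodes desmoplakin, which ties keratins to desmosomes. Its summits at 38162923 in WT and 38162895 in 3KR on chromosome 13, both inside the gene, ranked 161 of 1668 and 292 of 6753. Dst encodes the hemidesmosomal linker BPAG1. Its WT summit at 34160105 and its highest scored 3KR summit at 34160111 on chromosome 1 ranked 245 and 236. Evpl encodes envoplakin, and its summits lay 32 and 41 bp outside the gene. Of 15 other intermediate filament genes, Bfsp1 had a site in WT (6.67%, against 5.04% of all genes). In 3KR Bfsp1, Gfap, Lmna and Lmnb2 had one (26.7%, against 23.4%). None of 56 keratin-associated protein genes had a site in either list (Wilson upper bound 6.42%). That bound holds the 5.04% of all genes in WT and lies below the 23.4% in 3KR. These genes are neighbours, 23 of them in the 3KR gap of chromosome 11, so they are not independent counts and no test was made.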

How the data were processed

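Per the labels, the 3 libraries of each genotype belong to 1 combined summit list. The submitters' processing notes name BWA, MACS2 and the mm10 build. The control, threshold, read filters and pooling method are not stated there. The deposited score of each summit is read as −log10 of a p or q value, as MACS2 writes it, and which of them is not known. Positions are 1-based. Gene spans, start sites and promoter sequences are RefSeq's for GRCm38.p6. Of 53 keratin genes 36 matched the promoter table, 34 on the minus strand and 2 on the plus strand. Krt74 is a pseudogene in the table and was left out. Distances, shares and Wilson and Poisson intervals were computed with Python 3.11.15, pandas 2.3.3 and scipy 1.17.1, and the steps were checked on simulated lists. Summits at most 200 bp apart in the lists counted as shared. Named genes are all keratin genes with a site, those of the basal, suprabasal and stress-induced classes without one, and listed genes with a site; Krt13, Krt18, Krt76, Krt82 and the genes just past the limit were named after their values were seen. Members and lists were chosen with earlier results of these data known, so no test was made. Krt88 was added to the classes after the gene table was read. Alternatives varied the distance, the gene assignment, the score threshold, the 3KR list length and the sharing distance.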

Additional observations from a re-analysis of the deposited data

How the results depend on the processing

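No paired analysis was possible because each genotype is 1 combined list without values per library, and for the same reason no library could be left out. Counting each summit for its nearest gene only, a 5 kb distance, and sharing at most 50 or 500 bp kept every count within 1.5 times. Within 1 kb, 3 keratin genes had a 3KR site (5.66%, against 17.3% of all genes) and 3 a WT site (5.66% against 3.51%). At 1 kb the keratin share in 3KR thus stood well below that of all genes, which it did not at 10 kb, and no test was made. A site in both lists was left at 1, Krt78 (2.65% of all genes). The 3KR summit of Krt5 is 1015 bp away, and the summits of Krt14 are 1207 bp away in WT and 1169 bp in 3KR. In WT only there were 2 (0.868% of all genes) and in 3KR only 2 (14.7% of all genes). There were then 3 summits in each list, with 1 of 3KR shared. Within 50 kb, 18 genes had a WT site (34.0%, against 11.6% of all genes) and 32 a 3KR site (60.4% against 42.2%), 14 both (9.93% of all genes), 4 WT only (1.71%) and 18 3KR only (32.2%), from 8 and 16 summits, 6 of them shared. At this distance the keratin shares stood well above those of all genes in both lists, which the counts at 10 kb did not; 1 summit then reaches several genes of a cluster, and no test was made. In the upper 50% of the lists by score, 7 genes had a 3KR site (14.2% of all genes), 5 of them 3KR only (12.3% of all genes). Left were 3 WT and 6 3KR summits, 2.84 WT summits per Mb in the chromosome 15 cluster and 0.946 3KR summits per Mb in that of chromosome 11. When only the highest scored 3KR summits were kept, as many as in WT, 5 genes had a 3KR site (7.08% of all genes). Of these 5, 3 were 3KR only (4.80% of all genes). The genes with WT only were 2, Krt14 and Krt75 (2.76% of all genes). There were 4 3KR summits, 4.26 per Mb on chromosome 15 and 0.946 on chromosome 11. A pair of alternatives was chosen after seeing the data. Within 10 kb of gene ends without the rest of the gene bodies, Krt78 was lost from WT, which left 3 genes (3.40% of all genes), and stayed in 3KR through the summit near Krt8. Within 10 kb of start sites of the promoter table, 3 genes had a WT site (2.48% of all genes) and 5 a 3KR site (16.7% of all genes). Krt15, Krt19, Krt33a and Krt80 are not in that table, and Krt10 and Krt78 have start sites farther away. Depth is unknown, so a missing summit is not a sign of missing binding.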

Other observations

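The letters TATAAA, read on both strands, were in 19 of 37 keratin promoter windows, or 51.4% (95% Wilson interval 35.9 to 66.6), against 12.6% of the windows of all protein-coding genes. Among keratin genes with a site these were Krt8, Krt10 and Krt33b. The AP-1 motif, TGACTCA or TGAGTCA, was in 1 keratin window, that of Krt13, or 2.70% (0.479 to 13.8), against 4.66% of all protein-coding windows. The start site of Krt14 in the promoter table is at 100206030, inside the annotated gene, and lay 2687 bp from the WT summit and 2649 bp from the 3KR summit.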
